A study of Mus musculus with 9 samples.

Results

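The genes examined here encode regulators of DNA methylation, Polycomb repression and histone-based silencing: 43 genes, named by symbol, of the 47729 genes in the count files. They comprise writers, readers and erasers of DNA methylation, subunits of the Polycomb repressive complexes PRC2 and PRC1, demethylases of H3K27, histone deacetylases, and enzymes and cofactors of H3K9 methylation. All 43 symbols were found, and 42 of these genes had enough reads to be among the 12540 genes tested. Only Hdac9, a class IIa histone deacetylase, was not tested, with 0 to 0.153 CPM in the 9 libraries (CPM, the reads of a gene scaled to the total of its library).

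Messenger RNA was sequenced from cultured skeletal muscle myoblasts of the inbred mouse strain FVB/N, in 3 populations of 3 libraries each. SRC3 are the SRCs of cycle 3, FRC1 are the FRCs of cycle 1, both of them reserve cell populations grown on in proliferation conditions and passaged between their isolation and harvest, and PAR is the parental population. Reserve cells are undifferentiated mononucleated cells that persist when myoblast cultures are driven to form myotubes. No gene was edited and no drug is named in the labels.

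DNA methylation is copied to new strands after replication by the maintenance enzyme Dnmt1 with its cofactor Uhrf1, is laid down afresh by Dnmt3a and Dnmt3b, and is oxidised towards removal by the Tet enzymes. PRC2 methylates H3K27 through Ezh1 or Ezh2, and canonical PRC1 reads that mark through Cbx proteins and compacts chromatin or ubiquitinates histone H2A. In muscle precursors these systems are known to keep cell cycle inhibitor genes and late muscle genes silent until they are needed, and class IIa deacetylases bind and repress the muscle transcription factor MEF2.

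The libraries held 13012996 to 14336279 gene counts, so that 3 counts in a library, the floor used for a gene at 0, corresponded to 0.21 to 0.231 CPM. Levels below are CPM scaled by TMM, fold changes are log2 values with their standard errors, and genes were called at an adjusted p under 0.05 in edgeR (quasi-likelihood test, Benjamini-Hochberg adjustment over all 12540 genes). Whether the 3 libraries of a population stem from separate cultures is not stated, so a p-value covers the spread among these libraries alone, and that spread may be technical. Most markers of cultured myoblasts were present in all populations, and their sum differed between them. The 8 markers summed to 1860 to 2060 CPM in SRC3, 2680 to 2740 CPM in FRC1 and 2790 to 2870 CPM in PAR. Of these, 2 were under 1 CPM in every population, Msc and Myf5. Myf5 had 0 counts in FRC1 and PAR and 1 count in SRC3 replicate 3. Itga7 passed in no comparison, at 313.4 CPM in SRC3, 289.4 CPM in FRC1 and 289.5 CPM in PAR. Myod1, the muscle determination factor, averaged 539.1 CPM in SRC3, 770.1 CPM in FRC1 and 775.8 CPM in PAR. Pax7, the satellite cell factor, averaged 72.6, 113.7 and 127.0 CPM in SRC3, FRC1 and PAR. Markers of differentiating muscle summed to 8.88 to 22.1 CPM in SRC3, 79.8 to 94.8 CPM in FRC1 and 8.95 to 11.8 CPM in PAR. In SRC3 against PAR they went both ways, with Myog, Acta1, Myl1 and Myh3 higher, Tmem8c lower and Tnnt3 not passing. Fibroblast markers summed to 273 to 300 CPM in SRC3, 283 to 397 CPM in FRC1 and 554 to 584 CPM in PAR, with Lum and Tcf21 at 0 counts in all of them. Col3a1 made up most of that sum, at 278.8 CPM in SRC3, 332.4 CPM in FRC1 and 560.6 CPM in PAR, and 6 of the 8 markers were under 1 CPM in every population. Pericyte and smooth muscle markers summed to 54.7 to 66.9 CPM in SRC3, 178 to 243 CPM in FRC1 and 64 to 74.1 CPM in PAR. Within that sum Cspg4 was higher in SRC3, at 52.3 CPM against 7.81 in FRC1 and 0.695 in PAR, and Acta2 lower, at 8.58 CPM in SRC3 against 199.2 in FRC1 and 67.1 in PAR. Glial and neural markers summed to 267 to 279 CPM in SRC3, 237 to 299 CPM in FRC1 and 203 to 210 CPM in PAR. Endothelial markers reached at most 0.559 CPM in sum in any library, and immune markers at most 4.4 CPM. Several of these marker levels move with the population labels, and their part in the results below was not tested.

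Most of the regulator genes shifted little. In SRC3 against PAR 19 of the 42 tested genes passed the test, or 45.2% against 37.9% of all genes tested. Of these 12 were higher and 7 lower, where 17.8% and 20.2% of all genes were. In FRC1 against PAR 11 passed, or 26.2% against 28.3% of all genes, 8 higher and 3 lower where 13.6% and 14.7% of all genes were. SRC3 against FRC1 gave 15, or 35.7% against 33.5%, 9 higher and 6 lower where 15.5% and 18% of all genes were. In SRC3 against PAR the share higher was above that of all genes, and in FRC1 against PAR the share lower was below it. These counts are a description, and nothing about the set as a whole is read from them. The comparisons with PAR share the PAR libraries. The median absolute log2 fold change of the regulators was 0.15, 0.11 and 0.13 in SRC3 against PAR, FRC1 against PAR and SRC3 against FRC1, beside 0.18, 0.16 and 0.16 over all genes. Changes of at least 1.5-fold that passed the test were confined to 5 genes over the 3 comparisons, namely Dnmt3a, Dnmt3b, Tet2, Phf19 and Hdac5. They numbered 3 in SRC3 against PAR, where 12.4% of all genes had such a change, 1 in FRC1 against PAR, where 6.28% had, and 4 in SRC3 against FRC1, where 11.1% had. The libraries of the groups did not overlap for 27, 19 and 18 of the 42 genes in these comparisons, against 49.2%, 44.2% and 42.8% of all genes. Of the 42 genes, 26 passed in at least 1 comparison and 16 in none. The same share over all genes was not taken, so nothing about the set is read from this count. Under at least 1 alternative setting, 5 genes that had not passed did so in SRC3 against PAR, 2 in FRC1 against PAR and 7 in SRC3 against FRC1. For these counts too the share over all genes is not given, and nothing about the set is read from them. In these bulk samples, fewer cells with a transcript and less of it per cell cannot be told apart.

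**Figure D1:**
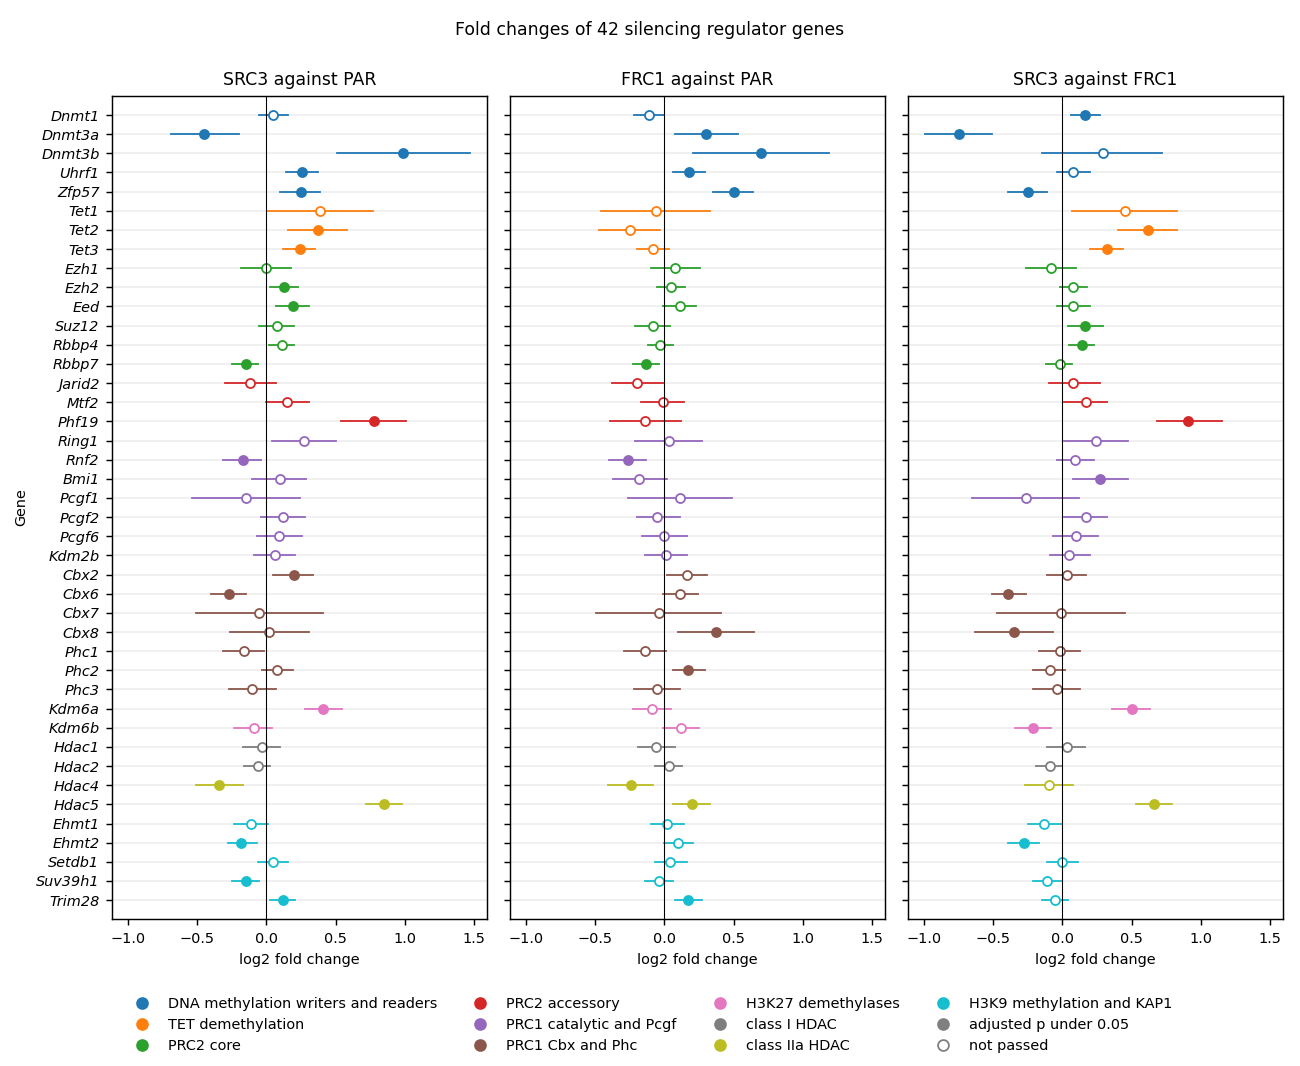
Log2 fold change (horizontal axis) of each of the 42 tested regulator genes in SRC3 against PAR, FRC1 against PAR and SRC3 against FRC1, with its 95% interval from the edgeR fit; filled points had an adjusted p under 0.05 and colours mark the role. Dnmt3b, Hdac5 and Phf19 lie farthest to the right in SRC3 against PAR at 0.99, 0.85 and 0.78, and Dnmt3a lies farthest to the left at -0.45.

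The promoters of 2 of these genes are printed because they hold a match to a motif with a known reader, and because both genes were much higher in SRC3. Of the 43 genes, 39 matched the RefSeq promoter table (build GRCm38.p6), with 56 promoter windows. The Phf19 promoter, chr2:34914027-34914226 on the minus strand, holds a match to an E2F word (TTTCCCGC, TTTCGCGC, TTTGCCGC or TTTGGCGC, on either strand), the binding site of the E2F factors that drive genes of S phase. The Hdac5 promoter, chr11:102230173-102230422 on the minus strand, holds a match to the MEF2 motif. Each is written 5′ to 3′ in the direction of transcription, with the match in capitals.
Phf19: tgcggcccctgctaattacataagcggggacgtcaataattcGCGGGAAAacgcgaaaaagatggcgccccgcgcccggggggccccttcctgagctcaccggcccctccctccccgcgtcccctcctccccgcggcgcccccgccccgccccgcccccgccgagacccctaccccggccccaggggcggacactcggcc
Hdac5: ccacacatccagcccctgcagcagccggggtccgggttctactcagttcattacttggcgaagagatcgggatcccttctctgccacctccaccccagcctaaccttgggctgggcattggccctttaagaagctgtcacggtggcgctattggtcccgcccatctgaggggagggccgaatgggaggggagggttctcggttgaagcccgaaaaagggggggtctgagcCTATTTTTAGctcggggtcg
In Phf19 the match lay 208 to 201 bases before the RefSeq start, and the window ends where an annotated exon begins. In Hdac5 it lay 20 to 11 bases before the start. An E2F word stood in 5 of the 39 genes' promoters, those of Dnmt1, Uhrf1, Suz12, Suv39h1 and Phf19, or in 8.93% of the 56 windows, against 1.86% of all 32851 promoters. A MEF2 match stood in the Hdac5 promoter alone, 1.79% of the windows against 2.92% of all promoters. The E-box CAGCTG, a word bound by Myod1, stood in 17.9% of the windows against 13.0% of all promoters, and the NRF1 motif in 1.79% against 0.782%. The 250 bases before the start held 31 CpG dinucleotides in Phf19, of which the shorter printed stretch of 200 bases shows 25, and 12 in Hdac5. The median over the 56 windows was 20 CpG in the same 250 bases, against 6 over all promoters. The E2F words and the NRF1 motif hold CpG themselves, and the motif shares above do not allow for this difference. No enrichment is read from them. A match shows only that these letters are in the window, not that a factor binds there.

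The DNA methylation writers and readers moved in unlike directions. The de novo enzyme genes Dnmt3a and Dnmt3b went opposite ways in SRC3, the maintenance enzyme gene Dnmt1 stayed within 1.12-fold between all populations, and Uhrf1 and Zfp57 were higher in both reserve populations than in PAR. Of these 5 genes, 3 were higher and 1 was lower in SRC3 than in PAR, 4 were higher in FRC1 than in PAR, and 1 was higher and 2 were lower in SRC3 than in FRC1. Over all genes 17.8% were higher and 20.2% lower in SRC3 against PAR, 13.6% were higher in FRC1 against PAR, and 15.5% were higher and 18% lower in SRC3 against FRC1.

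Dnmt3a (ENSMUSG00000020661, chr12:3806007-3914443, plus strand, GRCm38) had 15.4, 11.3 and 13.8 CPM in SRC3, 25.4, 20.1 and 22.7 CPM in FRC1 and 18.95, 17.06 and 19.17 CPM in PAR. The 3 populations did not overlap, with SRC3 lowest, PAR between and FRC1 highest. On the log2 scale the difference was -0.45 ± 0.12 (SE) in SRC3 against PAR (adjusted p = 0.0047) and 0.30 ± 0.11 in FRC1 against PAR (adjusted p = 0.043). SRC3 was 1.68-fold lower than FRC1, a log2 fold change of -0.75 ± 0.11 (adjusted p = 3.1e-05). The call of FRC1 against PAR was lost in DESeq2 and without FRC1 replicate 1 or 3 or any PAR replicate, with adjusted p up to 0.16. Both comparisons of SRC3 kept their call in each of the 17 alternatives.

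Dnmt3b (ENSMUSG00000027478, chr2:153649450-153687730, plus strand) was a low gene, with 3.08, 3.54 and 2.89 CPM in SRC3, 2.12, 2.52 and 3.13 CPM in FRC1 and 1.40, 1.68 and 1.70 CPM in PAR. Every library of either reserve population was above every PAR library, while SRC3 and FRC1 overlapped. It was 1.98-fold higher in SRC3 than in PAR, a log2 fold change of 0.99 ± 0.23 (adjusted p = 0.0019). In FRC1 it was 1.63-fold higher than in PAR, 0.70 ± 0.24 on the log2 scale (adjusted p = 0.032), a call lost in DESeq2 and without FRC1 replicate 2 or 3 or PAR replicate 1, 2 or 3, with adjusted p up to 0.17. SRC3 against FRC1 gave 0.29 with a 95% interval of -0.15 to 0.72. Of the 50-base words in its exons, 9.81% are shared with another gene, the largest share with its paralog Dnmt3c, which had 0 counts in all 9 libraries.

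Dnmt1 (ENSMUSG00000004099, chr9:20907209-20959888, minus strand) had 311.3, 345.3 and 346.0 CPM in SRC3, 310.6, 281.6 and 303.2 CPM in FRC1 and 327.2, 314.0 and 324.8 CPM in PAR. SRC3 lay just above FRC1 and overlapped PAR. SRC3 was higher than FRC1 by 0.16 ± 0.051 on the log2 scale (adjusted p = 0.018), a call lost without SRC3 replicate 3 (the highest) or FRC1 replicate 2 (the lowest), with adjusted p up to 0.074. Against PAR it was 0.05 in SRC3, with a 95% interval of -0.05 to 0.16, and -0.11 in FRC1, with an adjusted p of 0.12.

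Uhrf1, which brings Dnmt1 to hemimethylated DNA, averaged 201.2 ± 12.2 CPM in SRC3, 190.5 ± 12.4 CPM in FRC1 and 168.5 ± 5.33 CPM in PAR (SD, n = 3 each). The libraries of both reserve populations lay above those of PAR. The log2 fold change against PAR was 0.26 ± 0.056 in SRC3 (adjusted p = 0.0012) and 0.18 ± 0.056 in FRC1 (adjusted p = 0.024), the FRC1 call being lost without FRC1 replicate 1 or 3 or PAR replicate 1 or 3, with adjusted p up to 0.10. Of its 50-base words 15.4% are found in other genes, the largest share in Gm5648, so its level is uncertain to that extent. Zfp57, a KRAB zinc finger protein that keeps methylation at imprinted regions, had 90.6, 90.9 and 91.8 CPM in SRC3, 94.3, 118.6 and 111.7 CPM in FRC1 and 73.4, 80.4 and 76.5 CPM in PAR. None of the 3 populations overlapped, with PAR lowest and FRC1 highest. Its log2 fold change was 0.25 ± 0.07 in SRC3 against PAR (adjusted p = 0.0081), 0.50 ± 0.069 in FRC1 against PAR (adjusted p = 2.8e-05) and -0.25 ± 0.068 in SRC3 against FRC1 (adjusted p = 0.0078), the last lost without FRC1 replicate 2 or 3, with adjusted p up to 0.072.

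**Figure D2:**
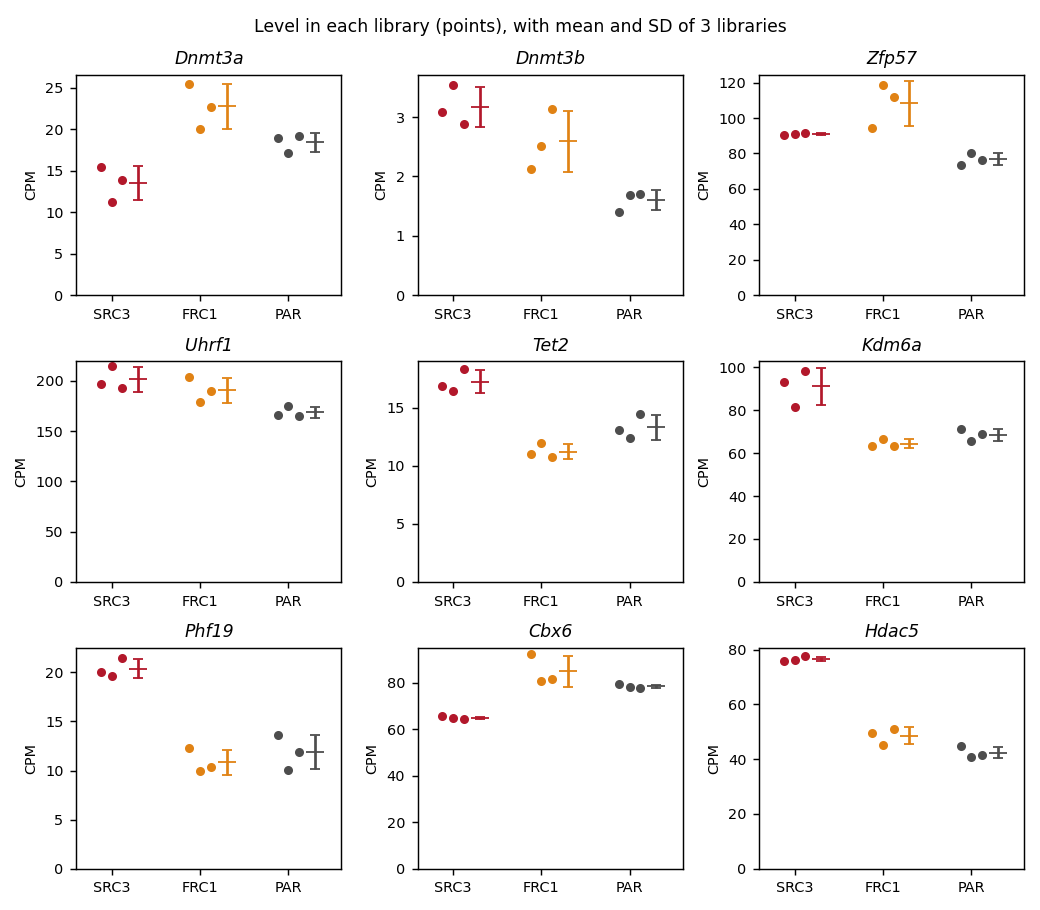
Level in CPM (vertical axis, from 0) of 9 regulator genes in each SRC3, FRC1 and PAR library (points), with the mean and SD of the 3 libraries beside them. SRC3 lies below the other populations for Dnmt3a and Cbx6 and above them for Tet2, Kdm6a, Phf19 and Hdac5, and Dnmt3b lies lowest in PAR at 1.40 to 1.70 CPM.

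The Tet genes, whose products oxidise methylated cytosine, had their highest means in SRC3. Of the 3 genes, Tet2 and Tet3 passed in SRC3 against PAR and in SRC3 against FRC1, and none passed in FRC1 against PAR. Over all genes 37.9% passed in SRC3 against PAR, 33.5% in SRC3 against FRC1 and 28.3% in FRC1 against PAR. Tet2 (ENSMUSG00000040943, chr3:133463679-133545139, minus strand) had 16.9, 16.5 and 18.4 CPM in SRC3, 10.98, 11.95 and 10.75 CPM in FRC1 and 13.1, 12.4 and 14.5 CPM in PAR. All SRC3 libraries were above, and all FRC1 libraries below, those of PAR. Its log2 fold change was 0.37 ± 0.099 in SRC3 against PAR (adjusted p = 0.0059), -0.25 ± 0.10 in FRC1 against PAR (adjusted p = 0.084) and 0.62 ± 0.10 in SRC3 against FRC1, or 1.53-fold (adjusted p = 8e-05). Tet3 averaged 88.3 ± 3.55 CPM in SRC3, 70.7 ± 1.76 CPM in FRC1 and 74.9 ± 3.38 CPM in PAR (SD, n = 3 each), 0.24 ± 0.056 in SRC3 against PAR (adjusted p = 0.0021) and 0.32 ± 0.056 in SRC3 against FRC1 (adjusted p = 0.00015) on the log2 scale. Tet1 was scarce, at 5.53 ± 0.286 CPM in SRC3, 4.02 ± 0.980 CPM in FRC1 and 4.20 ± 0.658 CPM in PAR. Its SRC3 libraries did not overlap with the others, yet the adjusted p was 0.097 against PAR and 0.063 against FRC1.

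The core of PRC2 changed by small amounts. The methyltransferase gene Ezh2 and the H3K27me3 reader gene Eed were higher in SRC3 than in PAR, the histone chaperone gene Rbbp7 was lower in both reserve populations, and Ezh1 did not pass in any comparison. Of the 6 core genes, 2 were higher and 1 lower in SRC3 against PAR, 1 was lower in FRC1 against PAR, and 2 were higher in SRC3 against FRC1. Over all genes 17.8% were higher and 20.2% lower in SRC3 against PAR, 14.7% were lower in FRC1 against PAR and 15.5% were higher in SRC3 against FRC1.

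Ezh2 (ENSMUSG00000029687, chr6:47530139-47595341, minus strand) had 158.8, 159.6 and 168.2 CPM in SRC3, 150.2, 152.9 and 156.8 CPM in FRC1 and 148.1, 147.3 and 149.7 CPM in PAR. The groups stood in that order without overlap, by narrow gaps. SRC3 was higher than PAR by 0.13 ± 0.047 on the log2 scale (adjusted p = 0.038), a call lost without the filter on low counts, in DESeq2 and without SRC3 replicate 3 or any PAR replicate, with adjusted p up to 0.12. Against PAR, FRC1 gave 0.05 with a 95% interval of -0.05 to 0.15, and SRC3 against FRC1 gave 0.08 with an interval of -0.02 to 0.18. Ezh1 (ENSMUSG00000006920, chr11:101191115-101226463, minus strand), the paralog that prevails in resting cells, had 18.02, 19.49 and 17.24 CPM in SRC3, 19.08, 18.74 and 20.08 CPM in FRC1 and 18.5, 18.5 and 17.9 CPM in PAR. Its SRC3 libraries spanned those of PAR, and the 95% interval of SRC3 against PAR ran from -0.18 to 0.18.

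Eed averaged 70.0 ± 0.139 CPM in SRC3, 66.2 ± 3.15 CPM in FRC1 and 61.4 ± 1.46 CPM in PAR, and was 0.19 ± 0.056 higher in SRC3 than in PAR on the log2 scale (adjusted p = 0.011). Suz12, the scaffold of the complex, was higher in SRC3 than in FRC1 by 0.16 ± 0.06 (adjusted p = 0.043), and the chaperone gene Rbbp4 by 0.14 ± 0.044 (adjusted p = 0.016). The Suz12 call was lost in a fit of SRC3 and FRC1 alone, with the replicate block and without SRC3 replicate 1 or 3 or FRC1 replicate 3, with adjusted p up to 0.19, and the Rbbp4 call without FRC1 replicate 1, with an adjusted p of 0.064. In SRC3 against PAR Rbbp4 just missed the threshold, at 0.11 (adjusted p = 0.053), and passed in 7 of 17 alternatives. Rbbp4 shares exon sequence with Sync on the opposite strand, so its level is uncertain where the counting did not use strand. Rbbp7 had a log2 fold change of -0.15 ± 0.045 in SRC3 (adjusted p = 0.011) and -0.13 ± 0.045 in FRC1 (adjusted p = 0.032) against PAR. These calls were lost without PAR replicate 1, with an adjusted p of 0.085 in SRC3. The FRC1 call was also lost without FRC1 replicate 2 or 3 or PAR replicate 3, with adjusted p up to 0.15.

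Among the accessory subunits of PRC2, Phf19, a Tudor-domain protein of the Polycomb-like family that helps PRC2 onto its targets, carried the largest change. Phf19 (ENSMUSG00000026873, chr2:34893757-34914026, minus strand) had 20.1, 19.6 and 21.5 CPM in SRC3, 12.3, 9.93 and 10.3 CPM in FRC1 and 13.6, 10.1 and 11.9 CPM in PAR. All SRC3 libraries were above all others, and FRC1 and PAR overlapped. It was 1.71-fold higher in SRC3 than in PAR, a log2 fold change of 0.78 ± 0.11 (adjusted p = 1.5e-05), and 1.88-fold higher than in FRC1, 0.91 ± 0.11 (adjusted p = 2.8e-06). FRC1 against PAR gave -0.14, with a 95% interval of -0.39 to 0.12. The other Polycomb-like gene in the set, Mtf2, averaged 54.7 ± 6.05 CPM in SRC3, 48.7 ± 1.26 CPM in FRC1 and 49.2 ± 2.97 CPM in PAR, and Jarid2, a subunit that binds and tunes PRC2, 20.9, 19.8 and 22.7 CPM. Neither passed in any comparison. Without SRC3 replicate 2, its lowest SRC3 library, Mtf2 passed in SRC3 against PAR (adjusted p = 0.010) and in SRC3 against FRC1 (adjusted p = 0.0070). Mtf2 shares exon sequence with Tmed5 on the opposite strand, so its level is uncertain where the counting did not use strand. Tmed5 had 2090, 1629 and 2094 counts in SRC3, also lowest in replicate 2.

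Of the 14 PRC1 genes, 3 passed in each comparison, where 37.9%, 28.3% and 33.5% of all genes did in SRC3 against PAR, FRC1 against PAR and SRC3 against FRC1. Of these genes, counting the enzymes, the Pcgf and Kdm2b subunits and the Cbx and Phc proteins, Rnf2, Cbx2 and Cbx6 passed in SRC3 against PAR, Rnf2, Cbx8 and Phc2 in FRC1 against PAR, and Bmi1, Cbx6 and Cbx8 in SRC3 against FRC1. Rnf2, the ubiquitin ligase also known as Ring1b, had 55.4, 48.3 and 58.1 CPM in SRC3, 50.7, 50.4 and 50.6 CPM in FRC1 and 60.5, 60.1 and 61.6 CPM in PAR. FRC1 and PAR stood well apart, a log2 fold change of -0.26 ± 0.065 (adjusted p = 0.0049). SRC3 was lower than PAR by less, -0.17 ± 0.065 (adjusted p = 0.044), and this call was lost in 11 of 17 alternatives, among them without SRC3 replicate 1 or 2, FRC1 replicate 2 or 3 or any PAR replicate, with adjusted p up to 0.27. Its paralog Ring1 averaged 16.6 ± 1.86 CPM in SRC3, 14.0 ± 1.85 CPM in FRC1 and 13.7 ± 0.332 CPM in PAR, with an adjusted p of 0.064 in SRC3 against PAR.

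Bmi1 (ENSMUSG00000026739, chr2:18677018-18686629, plus strand), the Pcgf subunit known for holding down Cdkn2a, had 84.6, 75.8 and 101.9 CPM in SRC3, 73.0, 77.4 and 66.6 CPM in FRC1 and 80.4, 78.4 and 86.3 CPM in PAR. Of the Bmi1 50-base words 16.7% are found in other genes, the largest share in Gm5946, so its level is uncertain to that extent. SRC3 was the most variable group and overlapped both others. The log2 fold change was 0.10 in SRC3 against PAR, with a 95% interval of -0.10 to 0.29, and 0.27 ± 0.092 in SRC3 against FRC1 (adjusted p = 0.035). That call was lost in a fit of SRC3 and FRC1 alone and without SRC3 replicate 1 or 3 or FRC1 replicate 1 or 3, with adjusted p up to 0.12, and without SRC3 replicate 3, its highest library, the value against PAR was -0.02. The other Pcgf genes Pcgf1, Pcgf2 and Pcgf6 and the CpG-island reader gene Kdm2b passed in no comparison, with log2 fold changes between -0.26 and 0.17.

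The Cbx genes, which encode the H3K27me3 readers of canonical PRC1, differed from each other. Cbx6 had 65.4, 64.7 and 64.2 CPM in SRC3, 92.4, 80.6 and 81.4 CPM in FRC1 and 79.3, 77.9 and 77.8 CPM in PAR. SRC3 was lowest without overlap, at a log2 fold change of -0.27 ± 0.059 against PAR (adjusted p = 0.0011) and -0.39 ± 0.059 against FRC1 (adjusted p = 3.2e-05). Cbx2 was higher in SRC3 than in PAR, at 38.4 ± 1.69 against 33.5 ± 1.34 CPM, 0.20 ± 0.068 (adjusted p = 0.028), a call lost without the filter on low counts, in DESeq2 and without SRC3 replicate 3 or PAR replicate 1 or 3, with adjusted p up to 0.090. Cbx8 had 8.06, 8.55 and 7.29 CPM in SRC3, 11.1, 11.1 and 8.33 CPM in FRC1 and 7.83, 7.65 and 8.02 CPM in PAR. FRC1 was highest, though its replicate 3 lay near the others. The FRC1 excess of 0.37 ± 0.13 (adjusted p = 0.040) was lost in 8 of 17 alternatives, with adjusted p up to 0.15, and that of SRC3 against FRC1, -0.35 ± 0.13 (adjusted p = 0.047), in 13, with adjusted p up to 0.17. Those 13 included the fits without SRC3 replicate 1 or 3, FRC1 replicate 1 or 2 or any PAR replicate, and those 8 the fits without SRC3 replicate 1, FRC1 replicate 1 or 2 or any PAR replicate.

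Cbx7 (ENSMUSG00000053411, chr15:79915807-79971119, minus strand), a Cbx protein known to repress Cdkn2a in other cells, had 1.91, 2.70 and 2.96 CPM in SRC3, 2.80, 2.31 and 2.49 CPM in FRC1 and 2.59, 2.53 and 2.70 CPM in PAR. All groups overlapped. At this low level the 95% interval of SRC3 against PAR spanned -0.51 to 0.41, so a change of that size was not detectable. Of the Phc genes, which encode the polymerising subunits, Phc2 was higher in FRC1 than in PAR, at 312.5 ± 1.72 against 276.9 ± 2.40 CPM, a log2 fold change of 0.17 ± 0.054 (adjusted p = 0.020). This was lost without FRC1 replicate 2 or 3 or any PAR replicate, with adjusted p up to 0.075. Phc1 and Phc3 passed in no comparison, with values between -0.16 and -0.02, although Phc1 in SRC3 against PAR, at -0.16 (adjusted p = 0.074), passed in 5 of 17 alternatives.

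The demethylase genes of H3K27 separated. Kdm6a, or Utx, on the X chromosome, had 93.3, 81.5 and 98.4 CPM in SRC3, 63.3, 66.6 and 63.4 CPM in FRC1 and 71.0, 65.4 and 69.0 CPM in PAR. SRC3 was above both other populations without overlap, by 0.41 ± 0.065 against PAR (adjusted p = 4.3e-05) and 0.50 ± 0.065 against FRC1 (adjusted p = 5.3e-06) on the log2 scale, while FRC1 against PAR gave -0.09 (adjusted p = 0.35). Kdm6b, or Jmjd3 (ENSMUSG00000018476, chr11:69398508-69413675, minus strand), had 63.4, 64.7 and 61.7 CPM in SRC3, 69.9, 80.7 and 68.9 CPM in FRC1 and 65.2, 66.9 and 70.0 CPM in PAR. SRC3 was lowest, at a log2 fold change of -0.21 ± 0.064 against FRC1 (adjusted p = 0.014), a call lost without SRC3 replicate 1 or FRC1 replicate 2, with adjusted p up to 0.14. Against PAR the values did not pass, at -0.09 in SRC3 (adjusted p = 0.28) and 0.12 in FRC1 (adjusted p = 0.17).

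The class IIa deacetylase genes moved apart, and Hdac5 gave the lowest adjusted p of the set in both comparisons of SRC3. Hdac5 (ENSMUSG00000008855, chr11:102194432-102230166, minus strand) had 76.0, 76.4 and 77.5 CPM in SRC3, 49.44, 45.02 and 51.12 CPM in FRC1 and 44.7, 40.8 and 41.5 CPM in PAR. SRC3 stood far above the others, and FRC1 narrowly above PAR. It was 1.81-fold higher in SRC3 than in PAR, a log2 fold change of 0.85 ± 0.062 (adjusted p = 1.2e-09), and 1.58-fold higher than in FRC1, 0.66 ± 0.062 (adjusted p = 5.8e-08). FRC1 against PAR gave 0.20 ± 0.064 (adjusted p = 0.029), a call lost in DESeq2 and without FRC1 replicate 1 or 3 or PAR replicate 2 or 3, with adjusted p up to 0.16.

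Hdac4 went the other way, at 37.6, 41.5 and 35.8 CPM in SRC3, 46.8, 37.0 and 39.2 CPM in FRC1 and 50.6, 46.4 and 48.4 CPM in PAR. PAR was highest, although FRC1 replicate 1 reached into its range. Against PAR its log2 fold change was -0.34 ± 0.082 in SRC3 (adjusted p = 0.0026) and -0.24 ± 0.081 in FRC1 (adjusted p = 0.030), the FRC1 call lost without FRC1 replicate 2 or 3 or PAR replicate 1 or 3, with adjusted p up to 0.14. An antisense gene that overlaps Hdac4, Gm26720, had 0 counts in all 9 libraries. The class I genes Hdac1 and Hdac2, whose products sit in the large corepressor complexes, passed in no comparison, with values between -0.09 and 0.03. Of the Hdac1 50-base words 35.5% are found in other genes, the largest share in Gm10093, so Hdac1 is uncertain.

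Of the 5 genes of H3K9 methylation and its KRAB cofactor, Ehmt2 and Suv39h1 were lower and Trim28 was higher in SRC3 than in PAR. Trim28 was also higher in FRC1 than in PAR, and Ehmt2 was lower in SRC3 than in FRC1. Over all genes 17.8% were higher and 20.2% lower in SRC3 against PAR. In FRC1 against PAR 13.6% of all genes were higher, and in SRC3 against FRC1 18% were lower. Ehmt2, or G9a, which writes H3K9me2, averaged 167.6 ± 8.17 CPM in SRC3, 203.4 ± 7.66 CPM in FRC1 and 189.5 ± 6.26 CPM in PAR (SD, n = 3 each). SRC3 was lowest without overlap, at a log2 fold change of -0.18 ± 0.051 against PAR (adjusted p = 0.0096) and -0.28 ± 0.051 against FRC1 (adjusted p = 0.00023). The call against PAR was lost without SRC3 replicate 1 or PAR replicate 2, with adjusted p up to 0.063. Suv39h1, which writes H3K9me3 in pericentric chromatin, averaged 141.4 ± 1.499 CPM in SRC3, 152.7 ± 4.67 CPM in FRC1 and 157.3 ± 3.56 CPM in PAR, and fell by 0.15 ± 0.047 in SRC3 against PAR on the log2 scale (adjusted p = 0.015), a call lost without SRC3 replicate 1 or PAR replicate 1 or 2, with adjusted p up to 0.079.

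Trim28, or KAP1, the cofactor through which KRAB zinc finger proteins such as Zfp57 recruit silencers, averaged 625.1 ± 21.004 CPM in SRC3, 649.3 ± 15.7 CPM in FRC1 and 575.2 ± 18.2 CPM in PAR. It was higher than in PAR by 0.12 ± 0.044 in SRC3 (adjusted p = 0.038) and 0.17 ± 0.044 in FRC1 (adjusted p = 0.0058). The SRC3 call was lost without the filter on low counts and without SRC3 replicate 2 or PAR replicate 1 or 3, with adjusted p up to 0.13. Setdb1, the methyltransferase that Trim28 recruits, and Ehmt1, the partner of Ehmt2, passed in no comparison, with log2 fold changes between -0.13 and 0.05.

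Levels per length show which of the paralogs made most of the RNA. In CPM per kilobase of exon, with the exons of all annotated isoforms merged, Dnmt1 averaged 45.3 in SRC3, 40.5 in FRC1 and 43.6 in PAR. Dnmt3a averaged 0.810, 1.37 and 1.11, and Dnmt3b 0.621, 0.507 and 0.312 on the same scale in SRC3, FRC1 and PAR. The order Dnmt1, Dnmt3a, Dnmt3b thus held in all populations, and the gap between the de novo genes was narrowest in SRC3. Ezh2 averaged 24.3, 23.0 and 22.2 CPM per kilobase against 2.45, 2.59 and 2.46 for Ezh1 in SRC3, FRC1 and PAR. Tet3 averaged 5.29, 4.23 and 4.49, Tet2 1.02, 0.666 and 0.789 and Tet1 0.358, 0.260 and 0.272. Among the Cbx genes the order per length in PAR was Cbx2 at 7.87, Cbx6 at 7.38, Cbx8 at 2.13 and Cbx7 at 0.401, with Cbx2 and Cbx6 close together. Trim28 was the most abundant per length at 150.3, 156.1 and 138.3, followed by Rbbp7 at 121.9, 123.6 and 135.7. Genes with long exons that few transcripts use are understated on this scale.

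**Figure D3:**
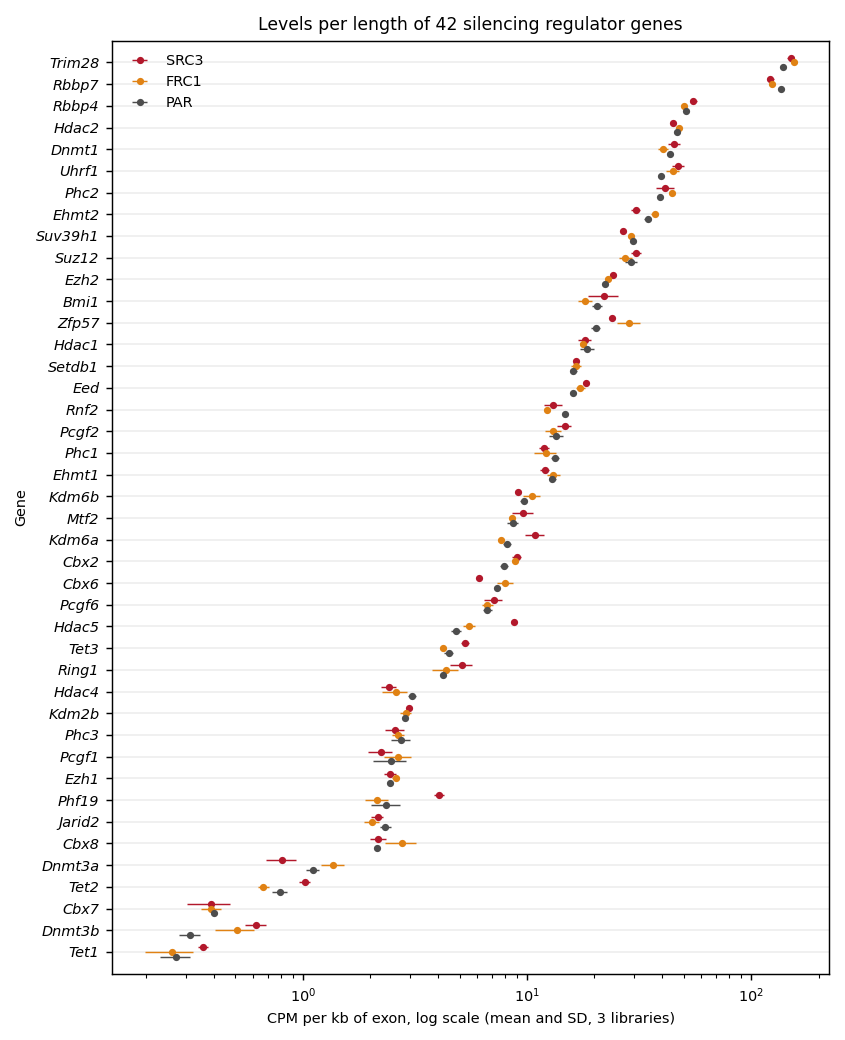
Level per length of the 42 tested regulator genes, as CPM per kilobase of merged exon on a log axis, mean and SD of 3 libraries for SRC3, FRC1 and PAR, sorted by the PAR mean. Trim28 is at the top with 150.3 in SRC3 and Tet1 at the bottom with 0.358, and the populations differ far less than the genes do.

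Related genes outside the set were described from lists of the same pathways, beside 37.9%, 28.3% and 33.5% of all genes called in SRC3 against PAR, FRC1 against PAR and SRC3 against FRC1. Of 21 tested other genes of DNA methylation and methyl-CpG reading, SRC3 against PAR had 6 higher and 4 lower, FRC1 against PAR 5 and 4, and SRC3 against FRC1 8 and 4. Gadd45b, which is linked to active demethylation, averaged 17.7 CPM in SRC3 against 10.7 CPM in PAR, 0.73 ± 0.11 on the log2 scale (adjusted p = 3.7e-05). Zbtb38 and Zbtb4, zinc finger proteins that bind methylated DNA, were lower in SRC3 than in PAR, at a log2 fold change of -0.68 ± 0.05 (adjusted p = 1.3e-09) and -0.51 ± 0.081 (adjusted p = 4.4e-05). Against FRC1 they were lower, at a log2 fold change of -0.64 and -0.50. Idh1, which makes the cofactor of the Tet enzymes, was lower than in PAR, at a log2 fold change of -0.44 ± 0.084 in SRC3 (adjusted p = 0.00032) and -0.51 ± 0.084 in FRC1 (adjusted p = 0.00018).

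Of 27 tested other subunits of PRC2 and PRC1, SRC3 against PAR had 3 higher and 4 lower, FRC1 against PAR 2 and 4, and SRC3 against FRC1 5 and 0. Pcgf5, a subunit of variant PRC1, averaged 35.3 ± 1.66 CPM in SRC3, 24.3 ± 1.56 CPM in FRC1 and 29.3 ± 2.52 CPM in PAR. SRC3 was above FRC1 by 0.54 ± 0.081 on the log2 scale (adjusted p = 2.7e-05). Its values against PAR were 0.27 in SRC3 (adjusted p = 0.011) and -0.27 in FRC1 (adjusted p = 0.018), the SRC3 call lost without PAR replicate 1 or 2 and the FRC1 call without FRC1 replicate 1 or 2 or PAR replicate 3. Scml2, a Polycomb protein best known from germ cells, was near the limit of detection, with 46 counts in the 3 SRC3 libraries against 8 in FRC1 and 13 in PAR. It was higher in SRC3 by 2.53 ± 0.50 against FRC1 (adjusted p = 0.00057) and 1.85 ± 0.45 against PAR (adjusted p = 0.0030). Auts2, a subunit of a PRC1 variant that activates genes in neurons, was lower than in PAR, at a log2 fold change of -0.46 ± 0.075 in SRC3 (adjusted p = 5.8e-05) and -0.35 ± 0.074 in FRC1 (adjusted p = 0.0016).

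Of 26 tested genes of the opposing PR-DUB and Trithorax complexes, SRC3 against PAR had 3 higher and 5 lower, FRC1 against PAR 4 and 1, and SRC3 against FRC1 4 and 3. Dpy30, a core subunit of the H3K4 methyltransferases, was higher in SRC3 than in PAR by 0.49 ± 0.066 (adjusted p = 6.6e-06). Of 35 other deacetylase, sirtuin and corepressor genes, SRC3 against PAR had 8 higher and 5 lower, FRC1 against PAR 4 and 4, and SRC3 against FRC1 8 and 4. Hdac7, the remaining class IIa gene, averaged 134 ± 8.14 CPM in SRC3 against 99.2 ± 2.88 CPM in PAR, 0.44 ± 0.053 (adjusted p = 1.8e-06), and the NuRD remodeller gene Chd3 was lower, at a log2 fold change of -0.44 ± 0.06 (adjusted p = 8.5e-06). Of 33 other genes of H3K9 methylation, HP1 and HUSH, SRC3 against PAR had 8 higher and 5 lower, FRC1 against PAR 5 and 6, and SRC3 against FRC1 5 and 5. The chromodomain gene Cdyl2 averaged 8.01 ± 1.07 CPM in SRC3, 3.66 ± 0.543 CPM in FRC1 and 2.14 ± 0.496 CPM in PAR. It was higher than in PAR by 1.91 ± 0.19 in SRC3 (adjusted p = 1.4e-07) and 0.78 ± 0.22 in FRC1 (adjusted p = 0.011, lost without FRC1 replicate 2 or PAR replicate 3), while its paralog Cdyl was lower in SRC3, at a log2 fold change of -0.54 ± 0.092 (adjusted p = 9e-05). The median log2 fold change of each of these 5 lists lay between -0.03 and 0.06 in the 3 comparisons, beside 0.01, 0 and 0 over all genes.

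**Figure D4:**
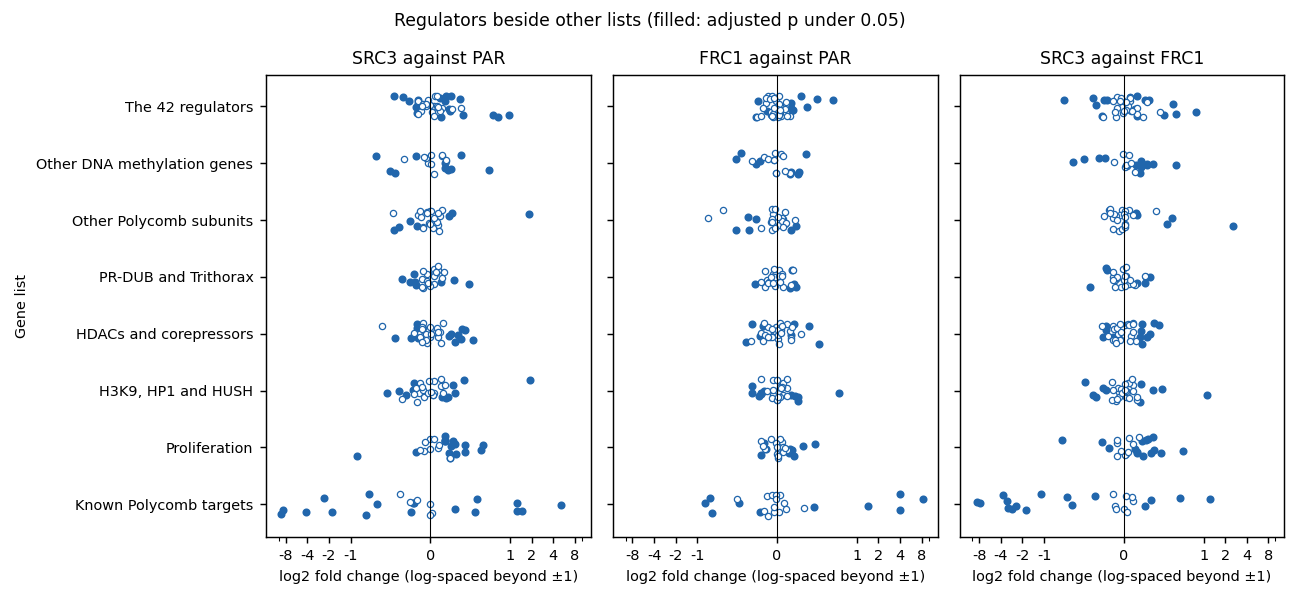
Log2 fold change (horizontal axis, linear between -1 and 1 and log-spaced beyond) of the tested genes of each list in SRC3 against PAR, FRC1 against PAR and SRC3 against FRC1, with filled points for an adjusted p under 0.05 and vertical scatter only to separate points. The 42 regulators lie between -0.45 and 0.99 in SRC3 against PAR. Known Polycomb target genes reach from -9.37 to 5.1. Their range is not set against the other lists, as a gene silent in some populations is tested only through those that express it.

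Several regulators are known to be made mostly in S phase, and genes of proliferation are given beside them. Of 25 proliferation genes, SRC3 against PAR had 14 higher and 2 lower, FRC1 against PAR 6 and 3, and SRC3 against FRC1 12 and 3, with median log2 fold changes of 0.19, 0.01 and 0.14. The called share was 64%, 36% and 60%, against 37.9%, 28.3% and 33.5% of all genes. Pcna, the replication clamp, averaged 160.7 ± 3.84 CPM in SRC3, 123.1 ± 2.97 CPM in FRC1 and 119.3 ± 8.27 CPM in PAR, and was higher in SRC3 than in PAR by 0.43 ± 0.054 (adjusted p = 2.8e-06). The origin factor gene Cdc6 was higher than in PAR by 0.64 ± 0.055 in SRC3 (adjusted p = 1.5e-08) and 0.47 ± 0.055 in FRC1 (adjusted p = 4.6e-06), and the cyclin gene Ccne1 was lower in SRC3, at a log2 fold change of -0.92 ± 0.063 (adjusted p = 4.9e-10). Mki67 averaged 311.4 ± 49.1 CPM in SRC3, 273.3 ± 19.6 CPM in FRC1 and 261.7 ± 15.8 CPM in PAR and passed in no comparison. The part of proliferation in the changes of Uhrf1, Ezh2, Dnmt1, Suz12, Suv39h1, Phf19 and the other regulators was not tested. Of the genes with an E2F word, Uhrf1 and Phf19 were higher in SRC3 than in PAR and Suv39h1 was lower. Dnmt1 and Suz12 did not pass in that comparison.

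Genes known from other work to be silenced by these systems were looked at in 2 lists. Whether these systems act on them in these cells was not tested. Of 35 germline genes whose silencing depends on DNA methylation or on a variant of PRC1, 3 were tested (Sycp1, Tdrkh and Zcwpw1) and 0 passed in any comparison with edgeR. At an unadjusted p under 0.05 there were 0 in SRC3 against PAR, 0 in FRC1 against PAR and 2 in SRC3 against FRC1. The other 32 were at or near 0, 21 of them with 0 counts in all 9 libraries, and summed to 0.366 to 1.16 CPM in SRC3, 0.57 to 1.68 CPM in FRC1 and 0.781 to 1.3 CPM in PAR. Of 52 known Polycomb targets, mostly described in other cells, 24 were tested. Among these SRC3 against PAR had 7 higher and 11 lower, FRC1 against PAR 5 and 5, and SRC3 against FRC1 4 and 12. A gene that is silent in some populations enters the test only through those that express it, so these counts are not set against other lists. The 28 that were not tested summed to 0.806 to 1.52 CPM in SRC3, 0.712 to 1.19 CPM in FRC1 and 0.765 to 0.979 CPM in PAR, and 14 of them had 0 counts throughout.

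The targets named here are those among the 4 largest changes that passed in any of the comparisons. Cdkn2a, which encodes p16Ink4a and p19Arf, had 14 counts in the 3 SRC3 libraries together, against 3474 in FRC1 and 6481 in PAR. Its log2 fold change was -8.76 ± 0.18 in SRC3 against PAR (adjusted p = 4.9e-15) and -0.90 ± 0.081 in FRC1 against PAR (adjusted p = 1.3e-06). The neighbouring inhibitor gene Cdkn2b had 5 counts in SRC3, against 2108 in FRC1 and 3707 in PAR, with -9.37 ± 0.25 in SRC3 against PAR (adjusted p = 5.8e-13), or -10.91 without SRC3 replicate 2, and -8.56 in SRC3 against FRC1, or -10.09 without that library. From RNA counts alone, silencing of a gene and loss of the gene cannot be told apart. The homeobox gene Six2 was lower in SRC3 than in PAR, at a log2 fold change of -4.16 ± 0.44 (adjusted p = 2.7e-07). The muscle genes Myog and Myh3 were higher in FRC1 than in PAR by 3.94 ± 0.27 (adjusted p = 7.2e-09) and 4.02 ± 0.28 (adjusted p = 1.3e-06), and belong to the markers of differentiating muscle given above. In SRC3 they were higher than in PAR by less, 1.46 ± 0.37 (adjusted p = 0.0037) and 1.24 ± 0.38 (adjusted p = 0.023). Myh7 had 45 counts in SRC3 and 440 in FRC1 against 1 in PAR. The 95% counting interval of the ratio to PAR ran over 8.05 to 1.91e+03 in SRC3 and over 78.8 to 1.75e+04 in FRC1. The single PAR count was in replicate 3, without which the fitted log2 fold change was 6.96 in place of 5.10 in SRC3 and 10.16 in place of 8.31 in FRC1, values that depend on the handling of a group at 0 and are no bounds. Igf2, an imprinted growth factor gene, was higher in FRC1 than in PAR by 1.45 ± 0.30 (adjusted p = 0.0011), with 91 counts in FRC1 against 33 in PAR, and was lower in SRC3 than in FRC1, at a log2 fold change of -3.78 ± 0.42 (adjusted p = 7.1e-07), with 6 counts in SRC3.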

How the data were processed

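Per the labels, libraries followed a stranded poly(A) RNA protocol with single reads. The authors deposited whole-number read counts per gene and library, not normalized. HISAT2 2.1.0, HTSeq 0.9.1, DESeq2 and the build GRCm38 are named per the submitters' processing notes, and the strand setting of the counting is not given in the sources used here. Where it was not used, reads of overlapping opposite-strand genes cannot be told apart (15 of the 43 genes have such an overlap). Uniquely aligned reads in no gene (5.92 to 7.92%) or ambiguous (1.18 to 1.21%) were left out. Replicates were compared before averaging, and none agreed within sampling noise.

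Counts were filtered with filterByExpr, scaled with TMM and tested two-sided with glmQLFit and glmQLFTest of edgeR 4.0.16 (R 4.3.3), in a fit over all 9 libraries with 6 residual degrees of freedom. Errors of fold changes are standard errors from that fit. Alternatives used DESeq2 1.42.0, limma 3.58.1 voom, other scalings, filters and sample sets, and left out each library. The code was checked on counts simulated from the fitted dispersion, which does not test whether that model holds for these libraries. Locations, exon lengths and shared 50-base words came from GENCODE M21 (GRCm38), and promoters from RefSeq (GRCm38.p6). Counting intervals and floors cover counting error only.

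The members and the lists were chosen with earlier results of these data known. Values in every library are given for members that passed with at least 1.5-fold change and 1 CPM, for 8 members named in the rule, and for a few others chosen after their values were seen (Zfp57, Rnf2, Cbx6, Cbx8, Kdm6a and Hdac4). From each other list the rule took up to 4 genes with the largest changes that passed, of which those described were picked after their values were seen, and added Cdkn2a, Cdkn2b, Mki67, Pcna, Myod1 and Pax7.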

Additional observations from a re-analysis of the deposited data

Results flagged for a closer look

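Dnmt3a, a de novo DNA methyltransferase gene, moved in opposite directions in the 2 reserve populations. Relative to PAR its log2 fold change was -0.45 in SRC3 and 0.30 in FRC1, and the difference itself, tested as SRC3 against FRC1, was -0.75 ± 0.11 (adjusted p = 3.1e-05, edgeR's quasi-likelihood test). All 3 SRC3 libraries were below, and all 3 FRC1 libraries above, those of PAR. The call of SRC3 against FRC1 held in all 17 alternatives, with values of -0.85 to -0.63. The FRC1 call against PAR did not hold in 6 of them.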

How the results depend on the processing

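No alternative reversed a gene that had passed. Of the calls, 12 of 19 in SRC3 against PAR, 3 of 11 in FRC1 against PAR (Rnf2, Trim28 and Zfp57) and 8 of 15 in SRC3 against FRC1 held in every alternative in which the gene was tested. Leaving out 1 library gave 13 to 21 called genes in SRC3 against PAR, 3 to 12 in FRC1 against PAR and 12 to 18 in SRC3 against FRC1. The count in FRC1 against PAR was 7 with DESeq2, 6 without FRC1 replicate 2, 4 without FRC1 replicate 3, and 4, 6 and 3 without PAR replicates 1, 2 and 3, which have fewer samples. The cause of the lower count with DESeq2 was not tested. The matching counts over all genes are not given for these settings, so nothing about the set is read from the counts in this section. Genes that had not passed did so in 1 or more alternatives, namely Rbbp4, Mtf2, Ring1, Phc1 and Phc2 in SRC3 against PAR, Bmi1 and Phc1 in FRC1 against PAR, and Ehmt1, Mtf2, Pcgf2, Phc2, Ring1, Rnf2 and Tet1 in SRC3 against FRC1. Same-numbered libraries deviated together with weak correlations of -0.07 to 0.118. In 14 of 18 library-by-group comparisons the best match nevertheless had the own number. A weak link between same-numbered libraries can therefore not be excluded, and the labels name no pairing. With the replicate number as a block, 19, 11 and 14 genes passed in SRC3 against PAR, FRC1 against PAR and SRC3 against FRC1. Genes that had not passed changed sign without 1 library, in the following ranges of log2 fold change. In SRC3 against PAR they were Bmi1 (-0.02 to 0.20), Cbx7 (-0.18 to 0.13), Cbx8 (-0.02 to 0.09) and Hdac1 (-0.07 to 0.03). In FRC1 against PAR they were Tet1 (-0.26 to 0.09), Mtf2 (-0.06 to 0.03), Ring1 (-0.04 to 0.13), Pcgf2 (-0.11 to 0.01), Kdm2b (-0.02 to 0.05), Cbx7 (-0.12 to 0.02), Phc3 (-0.10 to 0.03) and Ehmt1 (-0.02 to 0.06). In SRC3 against FRC1 they were Rbbp7 (-0.04 to 0.01), Cbx7 (-0.14 to 0.17), Phc1 (-0.09 to 0.05), Phc3 (-0.11 to 0.04), Hdac1 (-0.01 to 0.08) and Hdac4 (-0.16 to 0.01). Settings for genes of the other lists were applied after the data had been seen. Depth limits Tet1, Dnmt3b, Cbx7 and Pcgf1, which are scarce, and Dnmt3b, Cbx7 and Pcgf1 have no value under the stricter filter.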
